A study of Mus musculus with 16 samples.

Results

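The 10 genes described here were grouped as genes of the answer of gut epithelium to microbes, measured in the terminal ileum of mice: Saa1, Saa2, Saa3, Duox2, Duoxa2, Fut2, Lcn2, Nos2, Retnlb and Il22ra1. The last encodes a receptor chain of that answer. Whether microbes induced any of them in these mice was not tested. They were chosen by name, and the level of a gene is the sum of the RPKM (reads per kilobase of transcript, scaled to the reads of the library) of the transcripts that carry its name. All 10 were found among 23299 genes, and all 10 were among the 19042 genes tested, those that reached an RPKM of 1 in 2 or more libraries.

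The study fed C57BL/6 mice of 2 genotypes, wild-type littermates (Tas1r3+/+, WT) and mice without Tas1r3 (Tas1r3-/-, KO), for 10 weeks from 5 to 6 weeks of age. The normal diet (ND) was a matched low-fat pellet with plain water, and the Western diet (WD) was a pellet with 60% fat together with a 30% sugar solution. Tas1r3 encodes a subunit of the sweet and umami taste receptors, and the knockout is a deletion in every cell of the body that had been crossed back to C57BL/6. Labels give 4 libraries for each of 4 groups, 2 from males and 2 from females, made from whole frozen tissue, so a lower level can mean fewer cells of a type or less RNA in each cell, and these cannot be told apart.

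A thick community of microbes lives in the terminal ileum, and its epithelium answers contact with them through interleukin-22 and interleukin-17 from lymphoid cells, through STAT3 and NF-kB. Among the products are small lipid-binding proteins (serum amyloid A), an enzyme complex that releases hydrogen peroxide at the cell surface (DUOX2 with DUOXA2), a fucosyltransferase that decorates surface glycans which commensal bacteria use (FUT2), an iron-withholding protein (lipocalin-2), nitric oxide synthase and a goblet cell protein that acts on bacteria (RELM-beta). The receptor chain that makes epithelium responsive to interleukin-22 is IL22RA1.

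Before the results, 4 columns of the deposited table need naming. Both female columns of ND-fed Tas1r3-/- mice equal weighted means of the 2 male columns at all but 17 and 18 of 59258 transcripts, so they were left out, and that group holds 2 libraries. The pair of columns labelled as WD-fed Tas1r3-/- females are related to each other and were averaged, which leaves 13 libraries: 4, 2, 4 and 3 in WT-ND, KO-ND, WT-WD and KO-WD. Column sums were 817011 to 819992 on the ND and 542371 to 685274 on the WD, so all levels given here were scaled between libraries. Why the sums of the diets differ, without overlap, is not known. A difference in processing that went with the diet cannot be told apart from the diet itself. Scaled Tas1r3 was 1.56 to 6.53 in the 8 Tas1r3+/+ libraries and at most 0.00512 in the 5 Tas1r3-/- libraries, as the labels say, although Tas1r3 is itself among the few genes at which the left-out columns depart from the weighted means. Markers of the ileal enterocyte (8 of 8 tested, among them Fabp6 and Slc10a2) were present in every library, with summed levels of 8371 to 13398 in WT-ND, 4764 to 6813 in KO-ND, 6144 to 24050 in WT-WD and 1734 to 12872 in KO-WD. The lowest sum, in WD-fed Tas1r3-/- male 1, came with the highest sum of 6 smooth muscle markers (5159), and the highest, in WD-fed Tas1r3+/+ female 2, with the lowest (1040).

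Of the genes, 4 lie on chromosome 7 and 3 on chromosome 2 of GRCm38 (GENCODE M21). Saa3 (46711998 to 46715700, minus strand), Saa1 (46740497 to 46742980, minus strand) and Saa2 (46751790 to 46754313, plus strand) form a cluster on chromosome 7, which also carries Fut2 (45648591 to 45666394, minus strand). Duox2 (122279247 to 122298449, minus strand) and Duoxa2 (122298900 to 122302885, plus strand) stand head to head on chromosome 2, with 450 bases between them, and Lcn2 (32384633 to 32388252, minus strand) is on the same chromosome. Nos2 is on chromosome 11 (78920787 to 78960254, plus strand), Retnlb on chromosome 16 (48816856 to 48818892, plus strand) and Il22ra1 on chromosome 4 (135728172 to 135752140, plus strand).

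The upstream sequences of Saa1, Saa2 and Duoxa2 are shown because these genes moved together in pairs below. Saa1 and Saa2 point away from each other, and over 206 aligned bases before their starts 195 were identical (94.7%), with 11 substitutions, and Saa2 held 1 extra base. Sequences are from the RefSeq promoter table (GRCm38.p6), 5′ to 3′ on the strand of the gene, with exons left out. In the first 2, capitals mark bases that differ between them, and in the third the letters TATAAA.
Saa1, chr7:46742981-46743230, minus strand: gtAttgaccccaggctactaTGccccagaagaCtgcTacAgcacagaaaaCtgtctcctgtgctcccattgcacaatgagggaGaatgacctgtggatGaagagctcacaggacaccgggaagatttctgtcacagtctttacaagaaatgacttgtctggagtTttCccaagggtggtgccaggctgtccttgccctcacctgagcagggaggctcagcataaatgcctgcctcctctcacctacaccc
Saa2, chr7:46751583-46751789, plus strand: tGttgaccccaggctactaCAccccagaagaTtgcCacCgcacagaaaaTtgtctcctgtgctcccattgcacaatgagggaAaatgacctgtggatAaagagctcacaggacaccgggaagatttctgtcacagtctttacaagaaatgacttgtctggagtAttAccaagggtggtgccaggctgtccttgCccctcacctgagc
Duoxa2, chr2:122298650-122298899, plus strand: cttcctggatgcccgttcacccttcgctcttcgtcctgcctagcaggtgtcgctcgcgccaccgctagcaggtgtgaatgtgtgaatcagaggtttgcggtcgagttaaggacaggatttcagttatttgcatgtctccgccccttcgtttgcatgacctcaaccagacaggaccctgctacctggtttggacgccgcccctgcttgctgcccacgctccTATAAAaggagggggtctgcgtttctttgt

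The table held a window for 7 of the 10 genes, and not for Fut2, Nos2 and Retnlb. The windows are the 250 bases before the RefSeq start, which for some genes is not the gene end given above. The Lcn2 window lies wholly inside the GENCODE gene, and 28 bases of the Duox2 window lie outside it. In these windows, on both strands, the STAT motif TTCNNNGAA was in 0 of these 7 windows and in 7.02% of 32851 windows. The NF-kB motif was in 0 of 7 and in 1.41%, and TATAAA, looked for after the windows were seen, was in Duoxa2 and in 12.4%. No match says only that these letters are not in this window.

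Over the 13 libraries, 8 of the 10 genes spanned 10-fold or more, and the span ran from 5.41-fold for Lcn2 to 296-fold for Retnlb. Within a group, the highest library was up to 121 times the lowest for Saa1 and up to 37.5 times for Retnlb, but 1.72 to 2.22 times for Nos2, whose span lay mostly between groups. By median level, Saa1 was the highest, at 404 (98.9th percentile of the genes tested), followed by Duox2 at 61.7 and Duoxa2 at 35.2, and Lcn2 and Retnlb were the lowest, at 4.22 and 3.71. RPKM is per length, so these levels compare between genes. Of the 10 genes, 4 were lowest in WD-fed Tas1r3-/- male 1 and 4 were highest in the WD-fed Tas1r3-/- females.

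**Figure D1:**
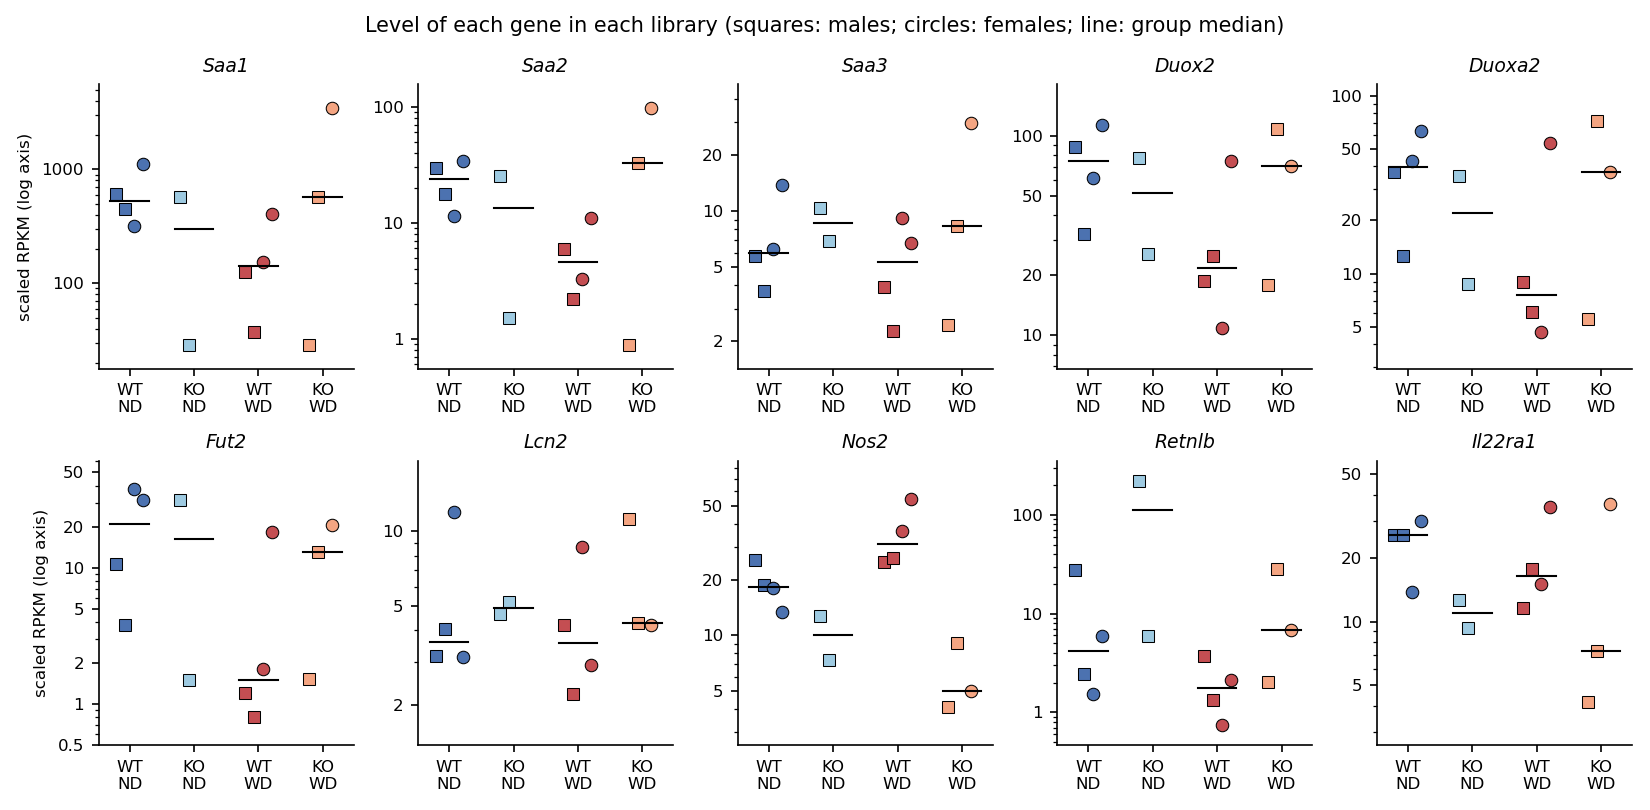
Scaled RPKM (log axis) of each gene in the 13 libraries, by genotype and diet; squares are males, circles females, and lines group medians. Nos2 is the gene whose WD-fed Tas1r3-/- libraries, at 4.10 to 9.10, lie wholly below the WD-fed Tas1r3+/+ libraries, at 24.9 to 54.6.

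Serum amyloid A proteins carry retinol and lipid and are made by ileal epithelium next to adherent bacteria. Scaled Saa1 was 612, 447, 318 and 1103 in ND-fed Tas1r3+/+ male 1, male 2, female 1 and female 2, 570 and 29.0 in ND-fed Tas1r3-/- males 1 and 2, 126, 37.6, 155 and 404 in the WD-fed Tas1r3+/+ mice in the same order, and 28.6, 572 and 3467 in WD-fed Tas1r3-/- male 1, male 2 and females. Of the 4 WD-fed Tas1r3+/+ libraries, 3 lay below all 4 of the ND-fed ones, while each Tas1r3-/- group spanned the range from its lowest library, male 2 or male 1, to values above the median of ND-fed Tas1r3+/+ mice. Saa2 was 29.5, 17.7, 11.4 and 34.2 in WT-ND, 25.3 and 1.51 in KO-ND, 5.95, 2.19, 3.24 and 11.1 in WT-WD, and 0.884, 32.4 and 97.0 in KO-WD, in that order. All 4 WD-fed Tas1r3+/+ libraries were below all 4 of the ND-fed ones for Saa2, although the gap at the edge was 11.1 against 11.4. Saa2 was 2.10% to 5.84% of Saa1 (median 3.95%), a narrow range beside the 121-fold and 110-fold ranges of the genes themselves. Since 13.2% of the 50-base words of transcript Saa1-201 also occur in Saa2-201, reads shared by both could be split between them, and the Saa2 level is uncertain.

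Saa3, the member of the family that macrophages and adipocytes also make, was far lower. Its level was 5.73, 3.72, 6.28 and 13.9 in WT-ND, 10.5 and 6.91 in KO-ND, 3.94, 2.29, 9.26 and 6.77 in WT-WD, and 2.44, 8.30 and 30.0 in KO-WD. Its levels in Tas1r3+/+ mice overlapped between the diets, and it was highest in the WD-fed Tas1r3-/- females. Summed macrophage markers (8 of 8 tested) were 113 to 215, 176 to 211, 121 to 230 and 82.6 to 165 in WT-ND, KO-ND, WT-WD and KO-WD, with the lowest sum in the library where Saa3 was highest. Summed adipocyte markers (7 of 7 tested) were 31.3 to 255, 105 to 172, 28.4 to 152 and 35.1 to 246 in the same order, and that library, the WD-fed Tas1r3-/- females at 246, had the second highest sum of the 13. The part of either cell type in the Saa3 level was not tested.

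DUOX2 produces hydrogen peroxide and needs DUOXA2 to leave the endoplasmic reticulum. Duox2 was 88.1, 32.2, 61.7 and 113 in WT-ND, 77.4 and 25.7 in KO-ND, 18.7, 25.0, 10.9 and 75.04 in WT-WD, and 17.8, 108 and 70.4 in KO-WD. Duoxa2 was 37.0, 12.5, 42.7 and 63.7 in WT-ND, 35.2 and 8.75 in KO-ND, 9.001, 6.09, 4.68 and 53.8 in WT-WD, and 5.56, 72.2 and 37.0 in KO-WD. For both genes 3 WD-fed Tas1r3+/+ libraries lay below all ND-fed Tas1r3+/+ libraries and the remaining one, female 2, lay among them. Duoxa2 was 24.3% to 71.7% of Duox2 (median 45.5%). Transcript Duox2-201 shares 7.29% of its 50-base words with Duox1-201, whose gene was at 0.163 to 3.21.

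FUT2 adds the terminal fucose that shields the epithelium in infection and feeds bacteria. Fut2 was 10.7, 3.80, 37.8 and 31.3 in WT-ND, 31.1 and 1.503 in KO-ND, 1.20, 0.799, 1.79 and 18.1 in WT-WD, and 1.53, 13.03 and 20.4 in KO-WD. As for the Duox genes, 3 WD-fed Tas1r3+/+ libraries lay below all ND-fed ones, and WD-fed Tas1r3+/+ female 2 was again the exception on the WD. In each of the 3 groups with females, the female libraries were above the male ones for Fut2 (31.3 to 37.8 against 3.80 to 10.7 in WT-ND, 1.79 to 18.1 against 0.799 to 1.20 in WT-WD, 20.4 against 1.53 to 13.03 in KO-WD). Saa3 was the other gene of the 10 with this order, which was noticed in the values and was not tested. The share of all genes with it was not counted. A sex had at most 2 libraries in a group, and the WD-fed Tas1r3-/- females were only the averaged library.

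RELM-beta, encoded by Retnlb, is secreted by goblet cells. Its level was 27.8, 2.43, 1.54 and 5.94 in WT-ND, 220 and 5.87 in KO-ND, 3.71, 1.34, 0.744 and 2.15 in WT-WD, and 2.01, 28.6 and 6.85 in KO-WD. A single library, ND-fed Tas1r3-/- male 1, stood far above all others. Summed goblet cell markers (8 of 8 tested) did not single out that library, at 9302, and ranged from 4798 to 17100 over all libraries, and r between Retnlb and their mean log2 level was 0.476 (permutation p = 0.0956, rho 0.560 with permutation p = 0.0498, adjusted p = 0.175 and 0.168 over 11 relations, r 0.304 without the 2 farthest libraries).

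Lipocalin-2, encoded by Lcn2, binds bacterial siderophores and is also stored by neutrophils. Lcn2 was 3.14, 4.06, 11.997 and 3.14 in WT-ND, 4.68 and 5.19 in KO-ND, 4.20, 2.22, 8.68 and 2.92 in WT-WD, and 11.2, 4.27 and 4.22 in KO-WD. It had the narrowest range of the 10 genes over all 13 libraries, though Nos2 was narrower within the Tas1r3+/+ groups and WD-fed Tas1r3-/- mice, and the libraries where it was high were not those where Saa1 or Duox2 were high. Of 10 neutrophil markers 3 were in the table (S100a9, Csf3r and Mpo) and 2 were tested. The sum of the 3 was 6.61 to 9.17 in WT-ND, 3.65 to 5.02 in KO-ND, 3.54 to 5.43 in WT-WD and 1.62 to 3.81 in KO-WD, lowest in the library where Lcn2 was second highest. Most of that sum was Mpo, with means of 6.74, 3.23, 3.30 and 2.09 in the same order of groups. Csf3r had means of 0.652, 0.638, 0.888 and 0.282, and S100a9 of 0.255, 0.467, 0.531 and 0.120. On the diet in Tas1r3+/+ mice these 2 means were higher and that of Mpo lower. In WD-fed Tas1r3-/- male 1, Csf3r was 0.464, the highest of its group, and S100a9 was 0.

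IL22RA1 is the epithelial chain of the interleukin-22 receptor. Il22ra1 was 25.6, 25.7, 13.9 and 30.1 in WT-ND, 12.7 and 9.30 in KO-ND, 11.7, 17.8, 15.1 and 34.8 in WT-WD, and 4.18, 7.29 and 36.0 in KO-WD. Both ND-fed Tas1r3-/- libraries were below all ND-fed Tas1r3+/+ libraries, and on the WD the Tas1r3-/- females were above all WD-fed Tas1r3+/+ libraries while both males were below them. The level followed the enterocyte markers: r with their mean log2 level was 0.912 over 13 libraries (permutation p = 2e-05, adjusted p = 0.00022 over 11 relations), rho was 0.929 (permutation p = 1e-05, the smallest that 100000 resamples can give, adjusted p = 0.00011), r was 0.836 without the 2 farthest libraries, 0.833 within the ND and 0.952 within the WD. None of the other 9 genes passed an adjusted p of 0.05 against these markers, and Nos2 came nearest with r = 0.645 (permutation p = 0.0158, adjusted p = 0.087), which was 0.234 without the 2 farthest libraries.

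Nos2 encodes inducible nitric oxide synthase, which epithelium and macrophages make in inflammation and whose product bacteria can turn into nitrate. Nos2 was 25.6, 18.7, 18.0 and 13.3 in WT-ND, 12.8 and 7.40 in KO-ND, 24.9, 26.0, 36.6 and 54.6 in WT-WD, and 4.10, 9.10 and 5.04 in KO-WD. All 5 Tas1r3-/- libraries were below all 8 Tas1r3+/+ libraries, although the gap at the edge was 12.8 against 13.3. That order held for no other gene of the 10, and the share of all genes with it was not counted. One of its values, that of transcript Nos2-201 in WD-fed Tas1r3-/- male 2, carried more than 6 significant digits. So did 169 values in all, in 102 transcripts of 70 genes, while every other value of the columns counted had at most 6. Digits were not counted in the left-out ND-fed Tas1r3-/- female columns. They were also not counted in WD-fed Tas1r3-/- female column 2, which is part of the averaged library. Nos2 was also 1 of the few genes at which the left-out ND-fed Tas1r3-/- female columns departed from the weighted means, at an RPKM of 12.99 where the mean gives 11.4 and 17.4 where it gives 11.1, while the other 9 genes matched them. The part of these digits and departures in the Nos2 result was not tested, other than by the fits named below.

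On the diet in Tas1r3+/+ mice, 9 of the 10 genes (and 49.2% of all genes) had lower mean log2 levels on the WD and Nos2 a higher one, with a median log2 fold change of -1.38 beside 0.01 over all genes. None passed the thresholds of the study, a 2-fold or larger change and an adjusted p below 0.01, applied here to limma, which 0.00525% of the genes tested passed, and 1 of 10, Nos2, had an unadjusted p under 0.05, which 15.6% of all genes had. A log2 fold change of -1 or less was found for 6 of the 10 and for 1.55% of all genes. Saa1, Saa2, Duox2, Duoxa2 and Fut2 were correlated from library to library, so such counts and medians are not over independent genes. The 10 genes were also chosen with earlier results of these data known, and a shift of the set was not tested. Fut2 had the lowest estimate, -2.32 ± 1.10 (SE, limma adjusted p = 0.333), followed by Saa1 at -2.08 ± 1.29 (adjusted p = 0.452), Saa2 at -2.06 ± 1.12 (adjusted p = 0.395), Duoxa2 at -1.57 ± 0.87 (adjusted p = 0.406), Duox2 at -1.40 ± 0.66 (adjusted p = 0.331) and Retnlb at -1.35 ± 1.09 (adjusted p = 0.573). Nos2 was at 0.86 ± 0.31 (unadjusted p = 0.0174, adjusted p = 0.231). Lcn2, Il22ra1 and Saa3 were at -0.23, -0.32 and -0.38. Saa2 was the gene whose groups did not overlap, with a two-sided exact permutation p = 0.0286, the smallest that 4 against 4 libraries allow, and 6.44% of all genes had non-overlapping groups that were lower on the WD. All fold changes are on the scale of log2(scaled RPKM + 0.5), which understates the change of low genes.

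WD-fed Tas1r3+/+ female 2 weighed on these differences. Without it, the log2 fold change was -3.22 for Fut2, -2.34 for Duoxa2 and -1.95 for Duox2, with unadjusted p = 0.00947, 0.0122 and 0.00923 and adjusted p = 0.145, 0.155 and 0.145 (limma), and that of Nos2 was 0.60 (unadjusted p = 0.0669). This library also had the highest enterocyte and goblet cell marker sums of the 13.

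On the diet in Tas1r3-/- mice, the 10 genes were spread around no difference. The ND-fed libraries were all male and the WD-fed ones of both sexes, so diet and sex are partly mixed. None passed the rule (0% of all genes did), none had an unadjusted p under 0.05 (5.51% of all genes), and 7 (47.9% of all genes) had a higher and 3 a lower mean log2 level on the WD, with a median of 0.13 beside -0.02. The estimates ran from -2.21 ± 1.41 for Retnlb (adjusted p = 0.944) to 1.57 ± 1.66 for Saa1 (adjusted p = 0.997), and Nos2 was at -0.71 ± 0.41 (adjusted p = 0.922). With 3 against 2 libraries the smallest exact permutation p is 0.1, and none of the 10 had groups that did not overlap, which 9.82% of all genes had with the WD higher and 10.9% with the WD lower. Without WD-fed male 1, the log2 fold change of Saa1 was 3.48 (unadjusted p = 0.0224) and that of Saa2 3.02 (unadjusted p = 0.013), both with adjusted p = 0.913. Without ND-fed male 2, that of Retnlb was -4.76 (unadjusted p = 0.00553, adjusted p = 0.999).

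Between the genotypes on the ND, none of the 10 genes passed the rule (0% of all genes did), and Nos2 had an unadjusted p under 0.05, as did 4.64% of all genes. The Tas1r3-/- libraries here were all male and the Tas1r3+/+ ones of both sexes, so genotype and sex are partly mixed. Nos2 was at -0.88 ± 0.38 in Tas1r3-/- against Tas1r3+/+ mice (unadjusted p = 0.0393, adjusted p = 0.894), Il22ra1 at -1.04 ± 0.66 (adjusted p = 0.894), Saa1 at -2.10 ± 1.58 and Saa2 at -1.59 ± 1.37. With sex as a covariate, Nos2 was at -0.86 (limma unadjusted p = 0.06465, adjusted p = 0.997). Enterocyte markers were lower in Tas1r3-/- mice on the ND for 8 of 8 genes, with a median log2 fold change of -1.13. Their mean log2 level was a covariate in a fit added after the data had been seen. In it Il22ra1 was at 0.08 (limma adjusted p = 0.98) and Nos2 at -0.62 (adjusted p = 0.915). Retnlb had the highest estimate, 2.71 ± 1.34 (unadjusted p = 0.0655, adjusted p = 0.894), which rested on male 1: without ND-fed Tas1r3-/- male 2 it was 5.26, and the 2 libraries were at 220 and 5.87. The groups did not overlap for Nos2 and Il22ra1, both lower in Tas1r3-/- mice (exact permutation p = 0.0667 each, the smallest that 4 against 2 libraries allow), as for 13.7% of all genes.

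Between the genotypes on the WD, Nos2 was 5.48-fold lower in Tas1r3-/- mice (log2 fold change -2.45 ± 0.34 (SE), limma unadjusted p = 8.09e-06, adjusted p = 0.0308). Under the same thresholds, 0 of the 10 genes and 0.0105% of all genes passed. At an adjusted p under 0.05, 1 of the 10, Nos2, and 0.0263% of all genes passed, and at an unadjusted p under 0.05, 1 of the 10 and 2.56% did. All 3 Tas1r3-/- libraries were below all 4 Tas1r3+/+ ones (exact permutation p = 0.0286, the smallest possible), as for 1.44% of all genes. Of the other 9 genes, 8 had higher mean log2 levels in Tas1r3-/- mice, as did 44.8% of all genes, and 6 had a log2 fold change of 1 or more beside 0.998% of all genes: Retnlb 1.85 ± 1.18, Saa2 1.65 ± 1.21, Saa1 1.55 ± 1.39, Fut2 1.42 ± 1.19, Duoxa2 1.14 ± 0.94 and Duox2 1.03 ± 0.71, each with an unadjusted p of 0.142 to 0.286 and an adjusted p of 0.9999. Saa3 was at 0.76, Lcn2 at 0.52 and Il22ra1 at -0.77. Here too the counts are not over independent genes, since Saa1, Saa2, Duox2, Duoxa2 and Fut2 were correlated, and a shift of the set was not tested.

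The Nos2 difference kept its direction in all 28 other fits that tested the gene, between -2.72 and -1.97. In 15 of them the adjusted p was under 0.05. Another fit could not test Nos2, since it left out the transcripts with values of over 6 digits in the columns counted. The adjusted p was 0.0442 without WD-fed Tas1r3-/- male 2, whose value had the extended digits, 0.0749 with sex as a covariate and 0.598 in males alone. When the mean log2 level of the enterocyte markers was a covariate, a fit added after the data had been seen, the log2 fold change was -2.19 (adjusted p = 0.136). Leaving out 1 library at a time gave adjusted p = 0.0431 to 0.290. It was above 0.05 without ND-fed Tas1r3+/+ male 1, male 2 or female 1, without WD-fed Tas1r3+/+ male 1, male 2 or female 1, and without the WD-fed Tas1r3-/- male 1 or female library. Macrophage markers were lower in WD-fed Tas1r3-/- mice for 8 of 8 genes (3 with an unadjusted p under 0.05, none with an adjusted p under 0.05), as were enterocyte markers for 8 of 8 (2 with an unadjusted p under 0.05). Their part in the Nos2 difference was not tested, other than by that covariate. Without the transcripts of over 6 digits, 0 genes of the whole table passed the rule in this comparison, beside 2 with them. Nos2, and Tnf and Il18 described below, which are all the genes of the lists used here with an adjusted p under 0.05 in any comparison, each hold such values, and the origin of these values was not tested.

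WD-fed Tas1r3-/- male 1 weighed on the rest. Without it, the log2 fold change between genotypes on the WD was 3.47 for Saa1 (unadjusted p = 0.0107), 3.49 for Saa2 (unadjusted p = 0.00217), 2.23 for Duoxa2 (unadjusted p = 0.0297), 1.83 for Duox2 (unadjusted p = 0.0235) and 1.64 for Saa3 (unadjusted p = 0.0185), all with adjusted p = 0.9999. With the enterocyte covariate the same differences were 4.003, 3.72, 2.35, 1.92 and 1.73 (adjusted p = 0.413, 0.413, 0.52, 0.516 and 0.51), Fut2 was at 2.999 (adjusted p = 0.516), and that of Il22ra1 changed sign, to 0.33. Without the WD-fed Tas1r3-/- females, that of Il22ra1 was -1.60 (unadjusted p = 0.00319, adjusted p = 0.344).

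**Figure D2:**
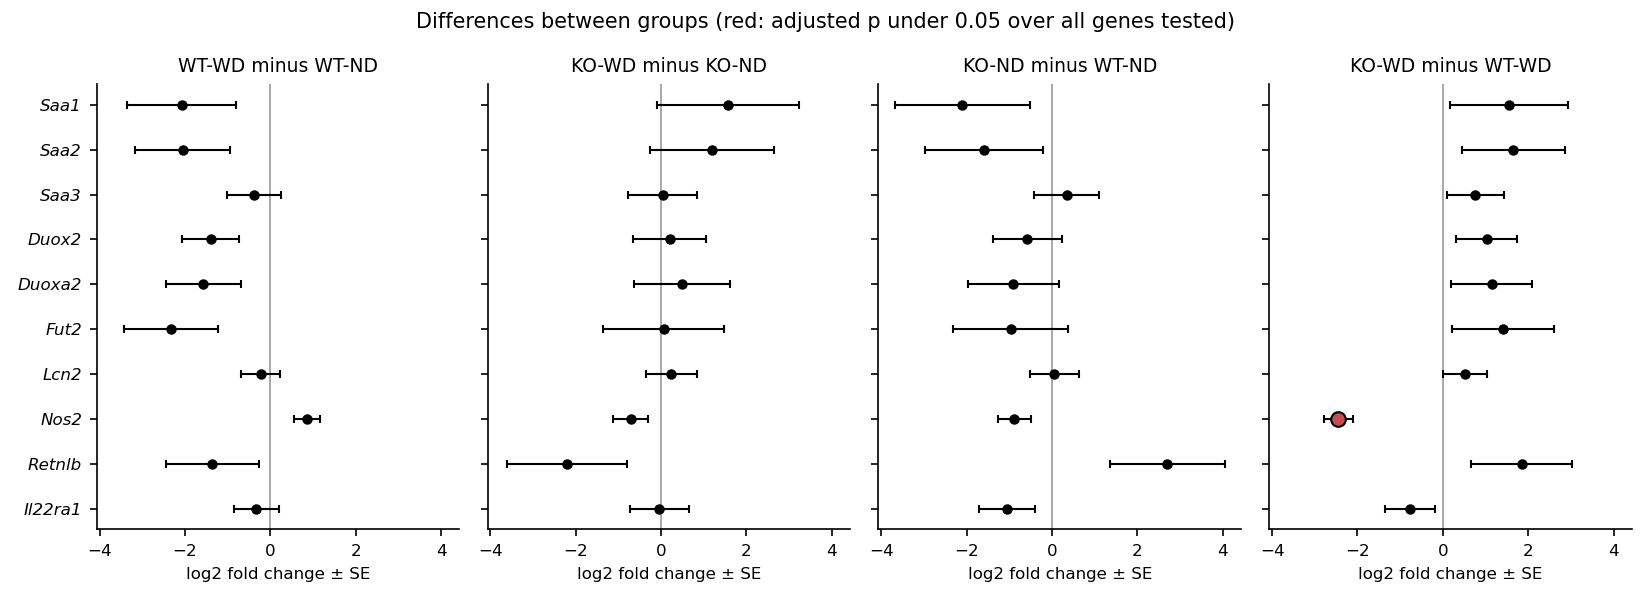
Log2 fold change of each gene in 4 comparisons, with bars of ± 1 SE (limma, 13 libraries in 1 model); red marks an adjusted p under 0.05 over all genes tested. Nos2 on the WD, at -2.45, is the red point, and the error bars of Saa1, Saa2, Fut2 and Retnlb are over 1 log2 unit in every panel.

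The difference between the diet effects of the 2 genotypes was tested as an interaction. None of the 10 genes passed the rule or an adjusted p under 0.05 (0% of all genes passed either), and Nos2 had an unadjusted p under 0.05, as did 1.37% of all genes. Nos2 was at -1.57 ± 0.51 (unadjusted p = 0.00938, adjusted p = 0.9999), with a WD effect of 0.86 in Tas1r3+/+ mice and of -0.71 in Tas1r3-/- mice. Saa1 was at 3.65 ± 2.10 and Saa2 at 3.25 ± 1.83 (unadjusted p = 0.107 and 0.101), and the median over the 10 genes was 1.04 beside -0.02 for all genes. The comparisons share groups, so they are not independent of each other. In the interaction too, the ND-fed Tas1r3-/- libraries were all male.

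Among the 10 genes, the levels of 5 were correlated from library to library. Over the 45 pairs and 13 libraries, 14 pairs had an adjusted permutation p under 0.05 for Pearson's r of log2 levels, and 10 of these had it for Spearman's rho too. Those 10 pairs linked Saa1, Saa2, Duox2, Duoxa2 and Fut2. Saa1 with Saa2 had r = 0.976 (rho 0.984, permutation p = 1e-05 for both, adjusted p = 0.000225 and 0.00045), and Duox2 with Duoxa2 had r = 0.968 (rho 0.907, permutation p = 1e-05 and 3e-05, adjusted p = 0.000225 and 0.000675). Without the 2 farthest libraries these were 0.960 and 0.959, and they were 0.990 and 0.964 within the ND and 0.971 and 0.970 within the WD. Fut2 had r = 0.918 with Duoxa2 (rho 0.736, permutation p = 0.00022 and 0.00507, adjusted p = 0.0033 and 0.0326), 0.914 without the 2 farthest libraries, 0.933 within the ND and 0.930 within the WD. Saa1 with Duox2 had r = 0.739 (rho 0.813, permutation p = 0.00439 and 0.00115, adjusted p = 0.018 and 0.0129), 0.692 without the 2 farthest libraries, 0.808 within the ND and 0.706 within the WD. Libraries share depth and tissue make-up over all genes, which such values include. Reads shared by Saa1 and Saa2 could also enter the r of that pair, and their part was not tested.

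The third gene of the Saa cluster had a higher r with Saa1 within the WD than within the ND. Saa3 had r = 0.766 with Saa1 (rho 0.637, permutation p = 0.00188 and 0.0214, adjusted p = 0.0094 and 0.0688), 0.839 without the 2 farthest libraries, but 0.265 within the 6 ND libraries and 0.945 within the 7 WD libraries. Whether the 2 diets differ was not tested. Nos2 had r = 0.0085 with Saa1 (rho -0.06, permutation p = 0.978 and 0.85, adjusted p = 0.988 and 0.89), 0.686 within the ND and -0.162 within the WD, so a pooled value describes neither diet, and it was -0.656 without the 2 farthest libraries. After the mean of each group was taken off, r of Nos2 was 0.484 with Saa1, 0.494 with Saa2, 0.584 with Duox2, 0.621 with Duoxa2 and 0.550 with Fut2, given as a description over the same 13 libraries. Lcn2 had r = -0.389 with Duox2 (rho -0.363, permutation p = 0.188 and 0.224, adjusted p = 0.292 and 0.347) and 0.0199 without the 2 farthest libraries.

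**Figure D3:**
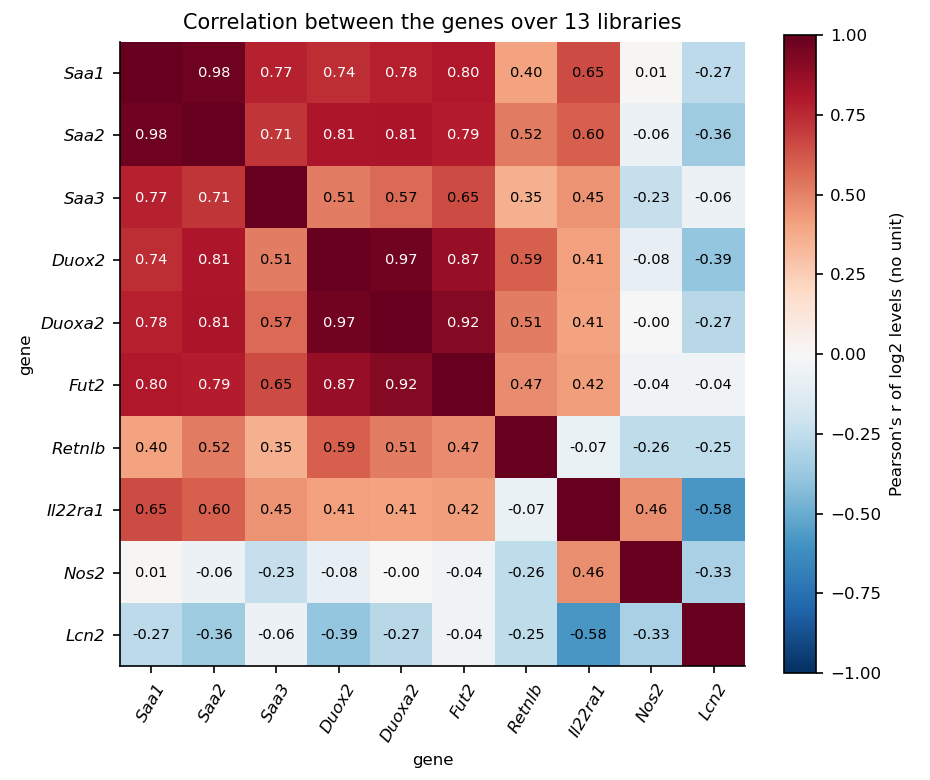
Pearson's r of log2 levels over 13 libraries for each pair of genes, from blue (-1) to red (1). Saa1, Saa2, Duox2, Duoxa2 and Fut2 form a block of r from 0.739 to 0.976, while r in the rows of Nos2 and Lcn2 runs from -0.581 (Lcn2 with Il22ra1) to 0.461 (Nos2 with Il22ra1).

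**Figure D4:**
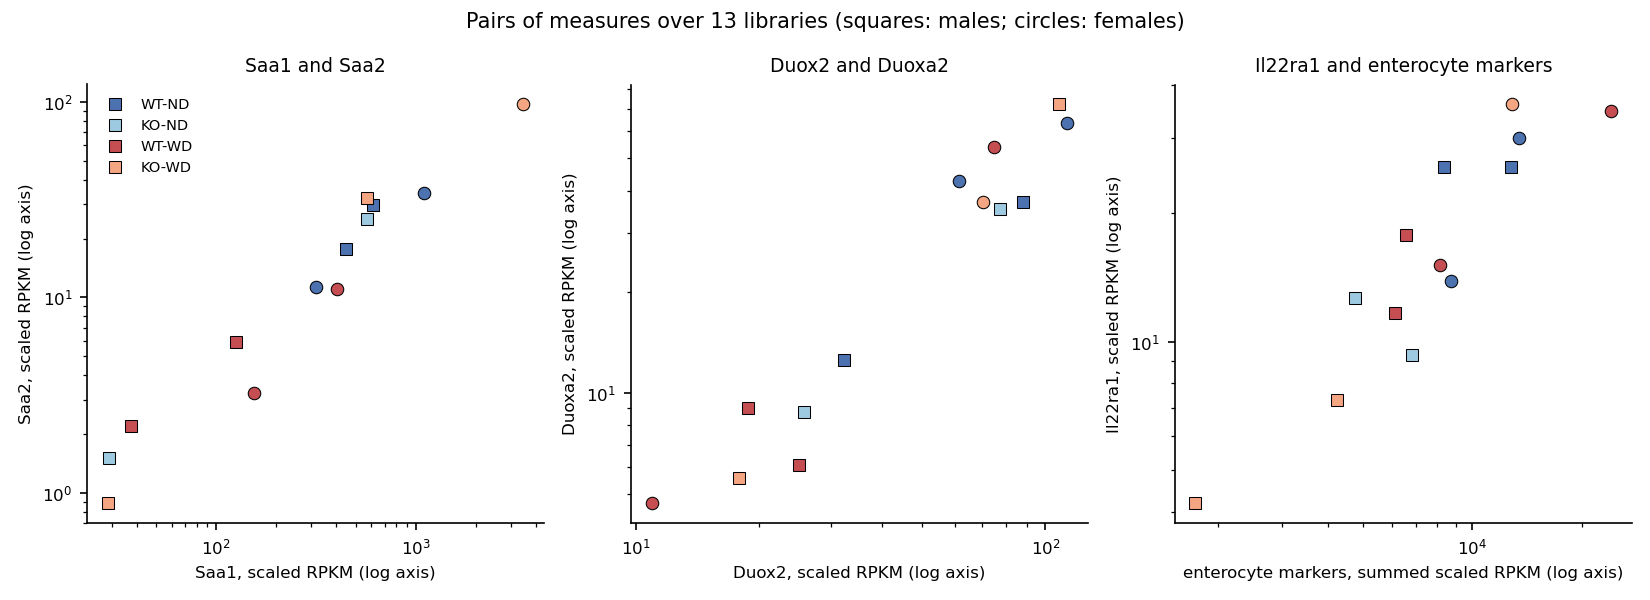
Scaled RPKM on log axes in the 13 libraries for Saa1 and Saa2, for Duox2 and Duoxa2, and for Il22ra1 and the summed enterocyte markers; colours are groups, squares males and circles females. Libraries of all 4 groups lie along the same line in the first 2 panels, with r of 0.976 and 0.968. In the third, Il22ra1 was 25.6 and 13.9 at similar sums, 8371 and 8718, in ND-fed Tas1r3+/+ male 1 and female 1. Its r of 0.912 was with the mean log2 level of the markers and not with their sum.

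Partners and relatives of the genes were given by a list of 15, of which 13 were tested. None passed the rule or an adjusted p under 0.05 in any comparison, and at an unadjusted p under 0.05 only Il22ra2 (higher, log2 fold change 1.03) and Retn (lower, -2.17) stood out, on the diet in Tas1r3+/+ mice (adjusted p = 0.207 and 0.254). IL22RA2 is a soluble receptor that binds interleukin-22, and Retn encodes the adipocyte hormone resistin. The median of the list was -0.31 in that comparison, -0.18 for the diet in Tas1r3-/- mice, 0.04 between genotypes on the ND and 0.13 on the WD, beside 0.01, -0.02, 0.01 and -0.03 for all genes. Il10rb, the second chain of the interleukin-22 receptor, was at 24.9 to 78.4, and its log2 fold changes were between -0.59 and 0.11. Duox1 and Duoxa1, the paralogs of the pair, were at 0.163 to 3.21 and 0.000393 to 4.33.

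Upstream of the epithelium, Il22 was 1.65 and 4.10 in ND-fed Tas1r3+/+ females 1 and 2 and at most 0.218 in the other 11 libraries. Il17a, Il23a, Osm and Il23r did not pass the filter. Socs3, a feedback inhibitor that STAT3 induces, was 29.2, 11.5, 232 and 218 in WT-ND, 15.2 and 8.91 in KO-ND, 5.71, 6.30, 7.01 and 49.2 in WT-WD, and 12.7, 43.5 and 49.5 in KO-WD. The 2 libraries with Il22 above 1 were the 2 with the highest Socs3. Of 24 listed genes of this axis 18 were tested, and 1 passed an adjusted p under 0.05 in 1 comparison: Tnf, which encodes tumour necrosis factor, was lower in WD-fed Tas1r3-/- than Tas1r3+/+ mice, at -2.34 ± 0.32 on the log2 scale (limma adjusted p = 0.0308). Tnf was 3.93, 1.93, 3.28 and 4.22 in WT-WD and 0.194, 0.210 and 0.313 in KO-WD, and at 0.368 to 1.17 on the ND, so the groups did not overlap on the WD. In that comparison 3 further genes had an unadjusted p under 0.05, all lower: Il1b (-1.77), Il6ra (-0.72) and Il6st (-0.66), and the list's median was -0.24 beside -0.03. On the diet in Tas1r3+/+ mice Tnf (1.62), Il1b (1.19) and Il6 (1.30) were higher and 2 genes lower at an unadjusted p under 0.05, one of them Socs3 (-2.54), none with an adjusted p under 0.05. Tnf, Il1b, Il6 and Il6ra also held values of more than 6 digits, 7, 1, 2 and 1 of them.

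Other defence genes of the epithelium were given by a list of 22, of which 17 were tested. Reg3b and Reg3g, lectins that bind bacterial cell walls, were among the most abundant transcripts of the tissue. Reg3b was 6822, 5659, 4180 and 7542 in WT-ND, 8543 and 1910 in KO-ND, 1580, 1995, 1945 and 9299 in WT-WD, and 1250, 7118 and 16982 in KO-WD. As for Saa1, it was lowest in WD-fed Tas1r3-/- male 1 and highest in the WD-fed Tas1r3-/- females. Reg3g was 767 to 2469 in WT-WD and 6248 to 11638 in KO-WD, without overlap, with a log2 fold change of 2.69 ± 0.58 (unadjusted p = 0.000499, adjusted p = 0.53), and unlike Reg3b it was high in WD-fed Tas1r3-/- male 1. In that comparison 4 genes of the list were higher and 1 lower at an unadjusted p under 0.05, with a median of 0.25, and the lower one, Il18, was the gene with an adjusted p under 0.05. Il18, an interleukin that epithelium stores, was 20.4, 12.6, 30.3 and 34.1 in WT-WD and 1.95, 2.71 and 2.61 in KO-WD, at -3.0001 ± 0.38 on the log2 scale (limma adjusted p = 0.0192). It is the same direction as that of Nos2, and Il18 and Reg3g each held 2 values of more than 6 digits. On the diet in Tas1r3+/+ mice 2 genes were higher (Slpi 1.40, Il18 1.19) and 3 lower (Reg3g -1.79, Muc13 -1.09, Dmbt1 -1.13) at an unadjusted p under 0.05, with a list median of -0.60.

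Marker genes of other cells moved with some of these comparisons. Paneth cell markers (7 of 7 tested) were higher in Tas1r3-/- mice on both diets, with a median log2 fold change of 1.21 on the ND and 1.36 on the WD, and summed levels of 32564 to 62326 and 33237 to 48306 beside 11375 to 32896 and 10782 to 23589 in Tas1r3+/+ mice. Of these genes 3 and 4 had an unadjusted p under 0.05 and none an adjusted p under 0.05, and Lyz1, Defa17 and Defa24 held values of more than 6 digits. Adipocyte markers (7 of 7) were lower on the WD in Tas1r3+/+ mice, with a median of -2.08 and 4 at an unadjusted p under 0.05, in the comparison in which Saa2 and Fut2 had their lowest estimates. Markers of hepatocytes, a main source of circulating serum amyloid A, summed to 2.42 to 10.9 (4 of 6 in the table, Alb and Apoa2 not analysed here). Markers of the lymphoid cells that make interleukin-22 and interleukin-17 summed to 6.61 to 37.8. The part of these cells in the results was not tested.

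The gene whose log2 level was most like each of the 10 over the 13 libraries was looked for among 10894 others with a mean RPKM of at least 5. It was Reg3b for both Saa1 (r = 0.920) and Saa2 (r = 0.925). For Duox2 it was Unc5cl (0.894), for Duoxa2 Gm29808 (0.888) followed by Unc5cl (0.884), and for Fut2 Ctsz (0.923). Il22ra1 was most like Elf4 (0.985), Nos2 most like Nfkb1 (0.859) and then Il18 (0.857), Lcn2 most like Akt2 (0.958), Saa3 most like Bin3 (0.896) and Retnlb most like Hpd (0.900). Nfkb1 held 5 values of more than 6 digits. These values are a description, and libraries share tissue make-up over all genes.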

How the data were processed

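RNA of terminal ileum was sequenced on an Ion Proton, and the authors aligned reads with STAR to GRCm38 with Ensembl annotation in Partek Flow and deposited an RPKM value per transcript. Depth as read counts is not given in the sources used here, and 1 read on 1 kb was worth an RPKM of 0.0692 to 0.139. The authors name DESeq2 for their own tests. RPKM was summed per gene, by transcript name without its last hyphen part, scaled by TMM, and tested as log2(RPKM + 0.5) with limma 3.58.1 in R 4.3.3 (trend, 1 model over 13 libraries, Benjamini-Hochberg adjustment over the 19042 genes that reached an RPKM of 1 in 2 or more libraries), and per gene by two-sided exact permutation. The rule on calls, an adjusted p under 0.01 and a fold of at least 2, takes its thresholds from the study. Correlations used 100000 resamples (scipy 1.17.1). The fits were tested on simulated data. All 10 genes are named. In the lists, genes past a threshold are named, along with others chosen after their values were seen. Members and lists were chosen with earlier results of these data known. Nothing ties replicate numbers or libraries to separate litters or days, so p-values measure the spread between these libraries. Names matched GENCODE M21 for 98.2% of transcripts. Alternatives were other scalings, pseudocounts, filters, covariates and sets of libraries.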

Additional observations from a re-analysis of the deposited data

Results flagged for a closer look

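Of 20 groups of 4 libraries (10 genes, both Tas1r3+/+ groups), 4 held a library set apart from its nearest neighbour. Its gap exceeded the critical value of Dixon's test, 0.829 of the group's range. Chance does so in about 1 in 20 groups only where values are normally spread. The test used scaled RPKM without logs, so that rate may not hold here. Some of the genes are also correlated, so the 20 groups are not independent. Duoxa2 was 53.8 in WD-fed Tas1r3+/+ female 2 beside 9.001 in the next library, a gap of 0.912 of the range. Fut2 was 18.1 in the same library beside 1.79 (0.943). Lcn2 was 11.997 in ND-fed Tas1r3+/+ female 1 beside 4.06 (0.896). Retnlb was 27.8 in ND-fed Tas1r3+/+ male 1 beside 5.94 (0.833).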

How the results depend on the processing

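Over 50 log2 fold changes (10 genes, 5 comparisons) and 29 alternatives, 1344 values kept their direction and their side of an unadjusted p of 0.05 or differed in sign without passing it, 76 came to pass it, 15 no longer passed it, and none reversed past it; 22 of the 50 changed sign under some alternative, 0 of them with an unadjusted p under 0.05 in the reported fit. The count of genes past the rule was 0 of 10 in each comparison. Between genotypes on the WD it was 1 (Nos2) without scaling, with all 16 columns as labelled, at an adjusted p under 0.05 and at an unadjusted p under 0.05, and it was 1 at an unadjusted p under 0.05 for the diet in Tas1r3+/+ mice, for the genotypes on the ND and for the interaction. Leaving out 1 library at a time gave 0 of 10 in every comparison. Without scaling, 539 genes passed the rule for the diet in Tas1r3+/+ mice, beside 1, and Duox2 was at -1.84 (adjusted p = 0.044).

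With the replicate block, 0 of the 10 genes passed in each comparison. In that fit Nos2 between genotypes on the WD had a limma adjusted p of 0.174. Libraries with the same number had correlations of deviations between -0.151 and 0.57. Libraries with different numbers were not compared, so these values cannot decide whether the numbers pair them. The fit of only the groups compared gave no interaction. Small groups (2 and 3 libraries in Tas1r3-/- mice) limit every comparison, and where 1 library was left of a group it was taken to vary like the others.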

Other observations

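The columns labelled as WD-fed Tas1r3-/- females, averaged above, had deposited Saa1 RPKM of 3181 and 2217, Fut2 of 18.6 and 13.1, Nos2 of 2.62 and 5.23, and Il22ra1 of 28.3 and 27.8. The left-out ND-fed Tas1r3-/- female columns had a deposited Retnlb RPKM of 159 and 134 and Saa1 of 417 and 354, which equal the weighted means of the male columns.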
